A study of Mus musculus with 4 samples.

Results

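The genes described here are the 5 that encode the subunits of the interleukin-12 (IL-12) family of cytokines: Il12a, Il12b, Il23a, Il27 and Ebi3. They were taken by gene symbol, and each of the 5 has a row in both deposited comparison tables, which have 14823 genes in common. The cells were bone marrow-derived dendritic cells (BMDCs) of C57BL/6 mice aged 8 weeks, studied by strand-specific sequencing of mRNA. There were 4 groups: GOLPH2 knockout (KO) cells that received IFN-gamma during 16 h and lipopolysaccharide (LPS), a product of bacterial outer membranes, during the 4 h that followed; wild-type (WT) cells stimulated in the same way; unstimulated KO cells; and unstimulated WT cells. Each group was 1 library, so no difference has a replicate check, and a call below compares 2 libraries by counting error and not 2 conditions. GOLPH2 is a protein of Golgi membranes, and its gene is Golm1. The labels do not say which bases of Golm1 were removed, whether the marrow of several mice was pooled, or which growth factors the cultures were given.

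IL-12 family cytokines are heterodimers that share chains. The p40 chain (Il12b) pairs with p35 (Il12a) to form IL-12, which drives type 1 helper T cells and IFN-gamma production, and with p19 (Il23a) to form IL-23, which sustains IL-17-producing T cells. EBI3 (Ebi3) resembles p40; it pairs with p28 (Il27) to form IL-27, a regulator of T cell responses, and is also described as a partner of p35 in IL-35. Dendritic cells and macrophages are the main source of IL-12, and a microbial signal given after IFN-gamma priming is a classical inducer of both its genes.

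The libraries held 36782068 (KO) and 37711570 (WT) reads after stimulation and 39557597 (KO) and 34645820 (WT) reads without it; the totals and the reads of each gene were solved from its deposited ratio and p. Levels are CPM, the reads of a gene per 1000000 reads of its library, with an exact 95% Poisson interval. Ratios are log2 of KO over WT on that scale, and the error after ± is the counting standard error (SE), which covers the sampling of reads only. A gene was called where the authors' deposited p, adjusted by the Benjamini-Hochberg method over all genes of its table, was under 0.001 and the ratio was 1.5-fold or more. Golm1 (chr13:59634626-59675811, minus strand, GRCm38, protein-coding) had 5.17 CPM in the KO and 20.7 CPM in the WT library after stimulation, and 5.71 CPM in the KO and 24.3 CPM in the WT library without it. The libraries labelled KO thus held 25.0% and 23.5% of the WT level of the targeted gene. Golm1 overlaps Naa35, which lies on the other strand. The strand setting of the read counting is unknown, so reads of Golm1 and Naa35 in the overlap cannot be told apart. Of 17 dendritic cell markers 16 were listed in each table, with Cd209a not listed. Their summed level was 8780 CPM in KO and 8365 CPM in WT cells after stimulation, and 7982 CPM in KO and 7657 CPM in WT cells without it. Without Cd74, H2-Ab1 and H2-Aa, which make up most of it, the sum was 3174 CPM in KO and 3003 CPM in WT cells, and 2652 CPM in KO and 2458 CPM in WT cells. Of these markers 1 was called, Clec10a, higher in KO cells in both states (0.86 ± 0.15 and 0.84 ± 0.12). Among all genes 0.425% were called higher after stimulation and 0.409% without it. Of 15 macrophage and monocyte markers 14 were listed, summing to 4137 CPM in KO and 4347 CPM in WT cells after stimulation, and to 3868 CPM in KO and 4226 CPM in WT cells without it. Without Cd14 the direction turned, at 2429 CPM in KO and 2289 CPM in WT cells after stimulation. In unstimulated cells it turned too, at 2779 CPM in KO and 2669 CPM in WT cells. The median ratio of the whole list was 0.15 after stimulation and 0.21 without it. With genes of 50 reads or more it was 0.13 in each state. Itgax, which encodes the dendritic cell marker CD11c, had 452 CPM in KO and 371 CPM in WT cells after stimulation. The macrophage marker F4/80, listed under its older symbol Emr1, had 1078 CPM in KO and 984 CPM in WT cells, so the libraries held abundant transcripts of both kinds.

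Il12b was the member that differed most between the genotypes, and its transcript fell in KO cells with and without stimulation. Il12a was lower in unstimulated KO cells and stood at 88.1% of the WT level after stimulation. Il23a, Il27 and Ebi3 were not called in either state. After stimulation 1 of 5 members was called lower (Il12b), against 0.594% of 15310 genes called lower and 1.02% called in either direction in that table. In unstimulated cells 2 of 5 members were called lower (Il12b and Il12a), against 0.299% of 15394 genes called lower and 0.708% called in either direction. Both unstimulated calls rest on scaling for depth: in the authors' deposited table, which is not scaled, Il12b (-0.49) and Il12a (-0.42) lie below 1.5-fold. No member was called higher in either state, against 0.425% of genes after stimulation and 0.409% without it. The median ratio of the 5 members was -0.18 after stimulation and -0.06 without it, where the median over all genes was 0.01 and 0.00.

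**Figure D1:**
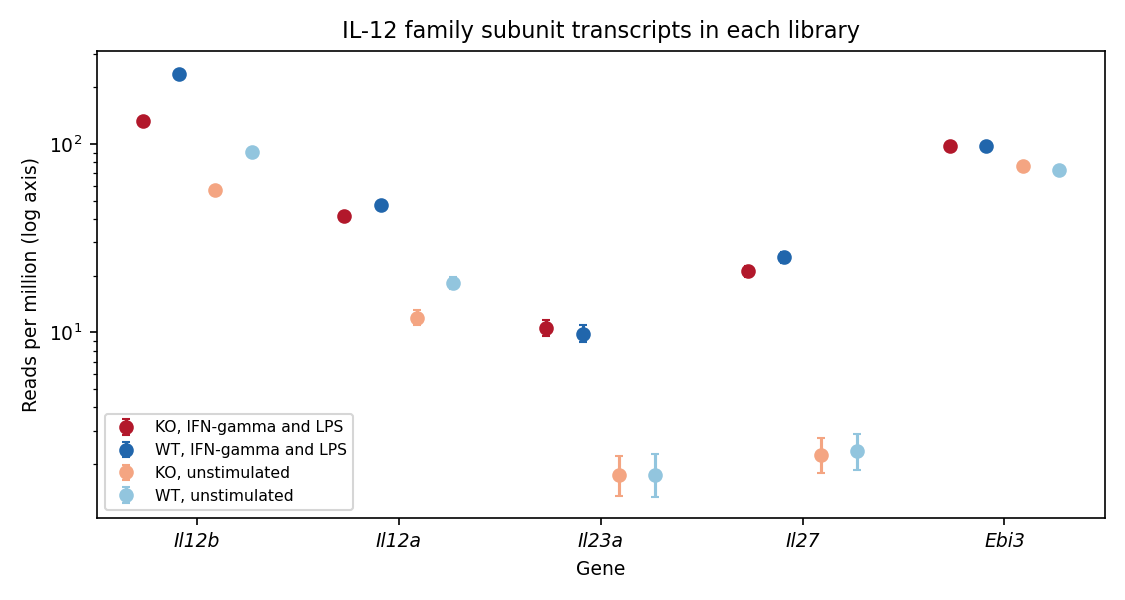
Level of each of the 5 subunit genes in each library, in CPM on a log axis; each point is 1 library with its 95% Poisson interval, KO left of WT within each state. Il12b stood at 133 CPM in the stimulated KO library and 236 CPM in the stimulated WT library, while the intervals of Ebi3, of Il23a and of unstimulated Il27 overlapped between the genotypes.

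Il12b (chr11:44400063-44414033, plus strand, GRCm38, protein-coding) encodes p40, the chain common to IL-12 and IL-23. Its promoter and that of Il12a are printed here because these are the 2 genes with a call; both are RefSeq windows on GRCm38.p6 from 250 bases before to 50 bases after an annotated start, on the plus strand, in lower case with motif matches in capitals. The Il12b window is chr11:44399813-44400112, and the 2 Il12a starts have the windows chr3:68690394-68690693 and chr3:68691174-68691473.
Il12b start 1: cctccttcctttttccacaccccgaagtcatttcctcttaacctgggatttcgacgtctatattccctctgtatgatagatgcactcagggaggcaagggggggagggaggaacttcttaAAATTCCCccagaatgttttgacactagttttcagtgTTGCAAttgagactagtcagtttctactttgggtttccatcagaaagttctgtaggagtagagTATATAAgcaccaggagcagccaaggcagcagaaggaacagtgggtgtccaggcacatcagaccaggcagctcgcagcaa
Il12a start 1: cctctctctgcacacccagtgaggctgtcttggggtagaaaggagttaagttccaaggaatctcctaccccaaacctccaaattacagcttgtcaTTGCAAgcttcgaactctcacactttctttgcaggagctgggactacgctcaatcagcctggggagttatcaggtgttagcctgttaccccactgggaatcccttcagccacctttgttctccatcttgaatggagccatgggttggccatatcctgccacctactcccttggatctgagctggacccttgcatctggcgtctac
Il12a start 2: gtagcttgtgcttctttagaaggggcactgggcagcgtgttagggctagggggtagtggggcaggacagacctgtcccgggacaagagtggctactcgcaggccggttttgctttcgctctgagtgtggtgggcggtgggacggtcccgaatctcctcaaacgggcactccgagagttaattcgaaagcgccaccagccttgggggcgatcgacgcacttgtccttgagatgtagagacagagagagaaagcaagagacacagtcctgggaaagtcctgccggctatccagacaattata
The capitals in the Il12b window mark a partial kappa B site (GGGAATTT, read on the minus strand, bases -130 to -123 from the start), a C/EBP core (TTGCAA, -93 to -88) and a TATA box (TATANAA, -30 to -24). In the window of the first Il12a start they mark a C/EBP core (-155 to -150), and the window of the other start held no match. Of 32851 RefSeq promoter windows of the same length, 0.947% held GGGAATTT, 6.23% TTGCAA and 11.3% TATANAA on either strand. The full kappa B site (1.63% of windows), the interferon-stimulated response element (3.44%), the Ets and IRF composite element (2.72%), the AP-1 site TGANTCA (7.81%) and the STAT site TTCNNNGAA (8.30%) had no match in these 3 windows. The full kappa B site and the partial one can overlap, as can the interferon element and the composite. The Ebi3 window (chr17:55952373-55952672) matched none of the 8 motifs. The motifs were chosen with the Il12b promoter in view, and a match is a run of letters, not a site shown to be bound.

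After stimulation Il12b had 4875 reads in the KO library and 8888 reads in the WT library. These are 133 CPM in KO (129 to 136) and 236 CPM in WT (231 to 241), so the intervals lie far apart. In unstimulated cells the KO library had 2246 reads and the WT library 3155. The levels were 56.8 CPM in KO (54.5 to 59.2) and 91.1 CPM in WT (87.9 to 94.3), again without overlap. The stimulated KO library held more Il12b than the unstimulated WT library, at 133 CPM against 91.1 CPM. The log2 ratio was -0.83 ± 0.026 after stimulation and -0.68 ± 0.040 without it, which leaves 56.2% and 62.3% of the WT level. In the authors' deposited table the p of Il12b is at the lowest value given for stimulated cells, and in unstimulated cells the adjusted p of the deposited values was 2.1e-64. Of 10999 genes counted at least as precisely as 50 reads in each library allow, 25 had a lower ratio than Il12b after stimulation, and in unstimulated cells 31 of 11119 did. These are bulk cultures, in which fewer cells making a transcript and less transcript per cell cannot be told apart.

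Il12a (chr3:68690644-68698547, plus strand, protein-coding) encodes p35, the chain that limits how much IL-12 heterodimer can form. In stimulated cells it had 1531 reads in the KO and 1781 reads in the WT library, or 41.6 CPM in KO (39.6 to 43.8) and 47.2 CPM in WT (45.1 to 49.5), with a narrow gap between the intervals. The log2 ratio there was -0.18 ± 0.050, an adjusted p of 0.0022 from the authors' deposited p-values, and the gene was not called. Without stimulation it had 473 reads in the KO and 634 reads in the WT library. These are 11.96 CPM in KO (10.9 to 13.1) and 18.3 CPM in WT (16.9 to 19.8), with no overlap. The ratio was -0.61 ± 0.088, or 65.3% of the WT level, with an adjusted p of 5.6e-11 from the deposited values, and 47 of 11119 genes lay lower. Its 95% counting interval, -0.79 to -0.44, includes the 1.5-fold threshold, so the call in unstimulated cells rests on a ratio close to it.

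Il23a (chr10:128296139-128298752, minus strand, protein-coding) encodes p19, which joins p40 in IL-23. It was the member with the fewest reads. The stimulated KO library had 389 reads, 10.6 CPM (9.55 to 11.7), and the stimulated WT library 372 reads, 9.86 CPM (8.89 to 10.9). Without stimulation the KO library had 69 reads, 1.74 CPM (1.36 to 2.21), and the WT library 61 reads, 1.76 CPM (1.35 to 2.26). The genotypes overlapped in both states. The ratios were 0.10 ± 0.10 after stimulation and -0.01 ± 0.25 without it, with adjusted p of 0.58 and 0.98 from the deposited values. At this depth the 95% interval of the unstimulated ratio runs from -0.51 to 0.48, so any ratio within that range is compatible with the counts there.

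Il27 (chr7:126589010-126594941, minus strand, protein-coding) encodes p28, the chain that gives IL-27 its name. The stimulated KO library had 775 reads, 21.1 CPM (19.6 to 22.6), and the stimulated WT library 943 reads, 25.0 CPM (23.4 to 26.7). In unstimulated cells the KO library had 89 reads, 2.25 CPM (1.81 to 2.77), and the WT library 81 reads, 2.34 CPM (1.86 to 2.91). The intervals were apart after stimulation and overlapped without it. The stimulated ratio was -0.25 ± 0.070 with an adjusted p of 0.0030 from the deposited values, past neither threshold, and the unstimulated ratio was -0.06 ± 0.22. Il27 overlaps Apobr, which lies on the other strand and was far more abundant (205 CPM in KO and 208 CPM in WT cells after stimulation, 171 CPM in KO and 163 CPM in WT cells without it). The strand setting of the read counting is unknown from the labels, so reads of Il27 and Apobr in the overlap cannot be told apart. Apobr's own ratios were -0.02 and 0.07.

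Ebi3 (chr17:55952640-55957022, plus strand, protein-coding) encodes the p40-like chain of IL-27. It had 3591 reads in the stimulated KO library and 3695 in the stimulated WT library, or 97.6 CPM in KO (94.5 to 101) and 97.98 CPM in WT (94.8 to 101). In unstimulated cells it had 3004 reads in KO and 2533 in WT, or 75.9 CPM in KO (73.2 to 78.7) and 73.1 CPM in WT (70.3 to 76.0). The genotypes overlapped in both states. The ratios were -0.01 ± 0.034 after stimulation and 0.05 ± 0.039 without it, with 95% intervals from -0.07 to 0.06 and from -0.02 to 0.13. Gm16712, an antisense gene that overlaps Ebi3, was much weaker, at 8.02 CPM in KO and 9.41 CPM in WT cells after stimulation.

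**Figure D2:**
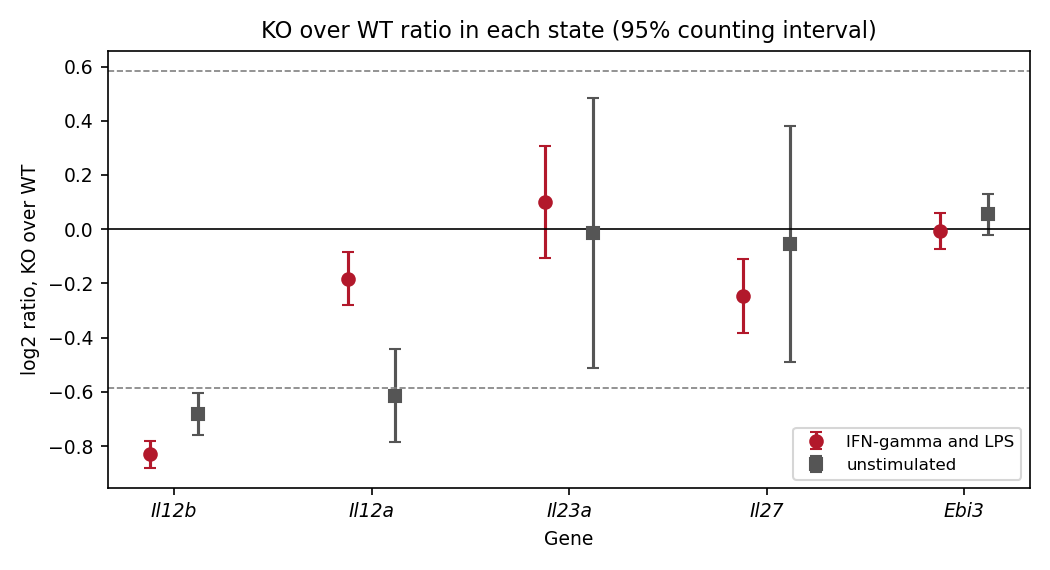
Log2 ratio of KO over WT for each of the 5 subunit genes in stimulated and unstimulated cells. Points are single comparisons of 1 KO with 1 WT library and bars their 95% counting intervals. Il12b lay at -0.83 and -0.68, and Il12a at -0.18 and -0.61.

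Since all 5 genes were read in the same libraries, the family can also be summed. The 5 genes together had 303 CPM in KO and 416 CPM in WT cells after stimulation, and 149 CPM in KO and 187 CPM in WT cells without it. Il12b made up 43.7% of that sum in KO and 56.7% in WT cells after stimulation, and 38.2% in KO and 48.8% in WT cells without it. As RPKM, reads scaled to the exon length in kilobases and to the library total, which allows genes to be compared, Ebi3 was the most abundant member of the stimulated KO library at 84.6 RPKM, followed by Il12b (67.4), Il12a (30.4), Il27 (20.6) and Il23a (7.78). In the stimulated WT library Il12b led at 120 RPKM, ahead of Ebi3 (84.9), Il12a (34.5), Il27 (24.5) and Il23a (7.25). The 2 leading genes thus stand in opposite order in the 2 genotypes after stimulation, with no overlap of their 95% intervals within either library. In unstimulated cells both libraries had the order Ebi3, Il12b, Il12a, Il27 and Il23a, at 65.8, 28.9, 8.73, 2.20 and 1.28 RPKM in KO and 63.4, 46.3, 13.4, 2.29 and 1.29 RPKM in WT cells. The intervals of Il27 and Il23a did not overlap in these libraries either.

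The balance between the chains of a heterodimer was compared as the difference of their log2 ratios, which does not depend on how the libraries are scaled. For IL-12, Il12b minus Il12a was -0.65 ± 0.056 after stimulation and -0.07 ± 0.096 without it. The RPKM of Il12b was 2.22 times that of Il12a in stimulated KO cells (2.09 to 2.35) and 3.48 times in stimulated WT cells (3.30 to 3.66). In unstimulated cells the ratio was 3.31 in KO and 3.47 in WT cells, with overlapping intervals. With the exons of all annotated transcripts the ratio became 2.75 in KO and 4.32 in WT cells after stimulation. Without stimulation it became 4.11 in KO and 4.30 in WT cells, so its size depends on the transcript model. The excess of p40 over p35 transcript was therefore smaller in the stimulated KO library than in the other 3.

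For IL-23, Il12b minus Il23a was -0.93 ± 0.11 after stimulation and -0.67 ± 0.26 without it. Il12b exceeded Il23a per length 8.66-fold in KO and 16.5-fold in WT cells after stimulation, and 22.5-fold in KO and 35.8-fold in WT cells without it. With the exons of all annotated transcripts these became 14.3-fold in KO and 27.3-fold in WT cells, and 37.2-fold in KO and 59.1-fold in WT cells, so the size of this excess depends on the transcript model, while the difference between the genotypes does not. For IL-27, Ebi3 minus Il27 was 0.24 ± 0.078 after stimulation and 0.11 ± 0.22 without it. Ebi3 exceeded Il27 4.10-fold in KO and 3.47-fold in WT cells after stimulation, and 29.9-fold in KO and 27.7-fold in WT cells without it. For the IL-35 pair, Ebi3 minus Il12a was 0.18 ± 0.061 after stimulation and 0.67 ± 0.096 without it, with Ebi3 in 2.78-fold excess in KO and 2.46-fold in WT cells after stimulation, and in 7.54-fold excess in KO and 4.74-fold in WT cells without it. With the exons of all annotated transcripts the excess of Ebi3 over Il12a became 3.46-fold in KO and 3.06-fold in WT cells after stimulation. Without stimulation it became 9.36-fold in KO and 5.89-fold in WT cells, and the IL-27 ratios did not change. The differences between chains carry counting error only and were not tested.

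**Figure D3:**
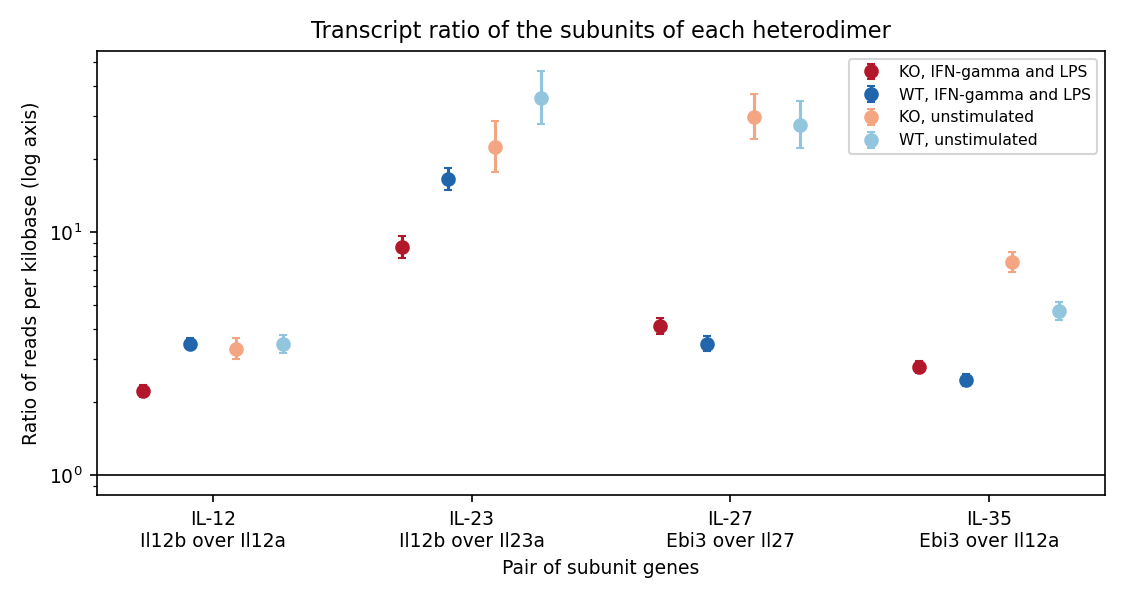
Ratio of the levels per exon length of the 2 chains of each heterodimer in each library, on a log axis, with 95% counting intervals; KO is left of WT in each state. For Il12b over Il12a the stimulated KO library stood at 2.22 and the other 3 libraries between 3.31 and 3.48. The intervals do not cover the choice of transcript model.

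The 2 comparisons share no library, so the ratio after stimulation can be set against the ratio without it. The difference, stimulated minus unstimulated, was -0.15 ± 0.047 for Il12b, with a 95% counting interval from -0.24 to -0.06. For Il12a it was 0.43 ± 0.10 (0.23 to 0.63), in the other direction. For Il23a (0.11 ± 0.27), Il27 (-0.19 ± 0.23) and Ebi3 (-0.06 ± 0.052) the interval included 0. With 1 library per group there are no degrees of freedom to test these differences, and the spread between cultures is not part of the interval. Of the 14823 genes of both tables, 14 (0.0944%) were called lower in both states, and Il12b was the 1 member among them.

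**Figure D4:**
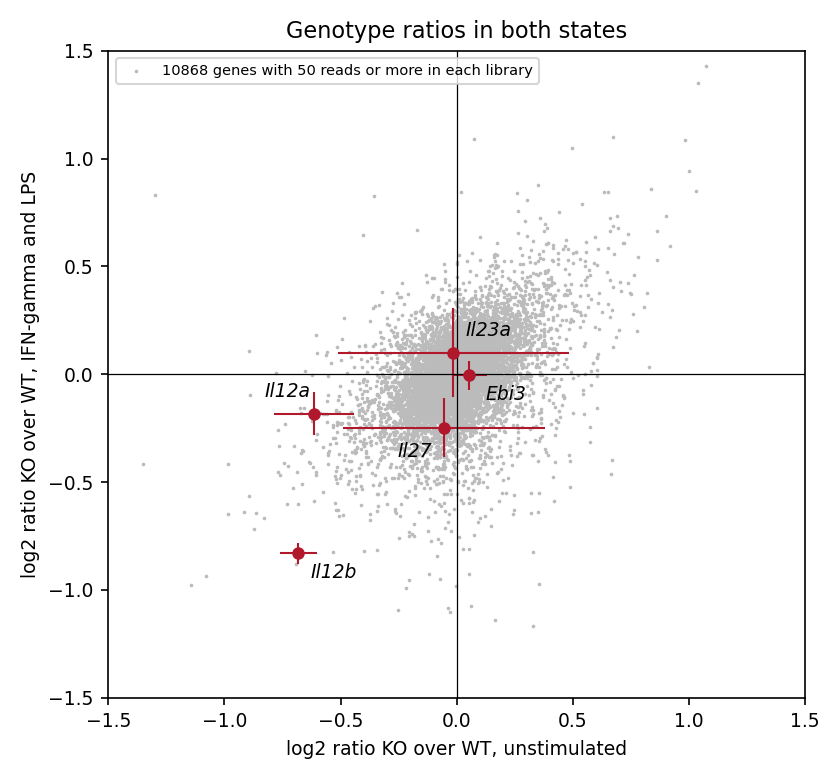
Log2 ratio of KO over WT in stimulated cells against that in unstimulated cells, with 1 point per gene with 50 reads or more in each library. The 5 subunit genes are marked, and genes beyond the axis limits are not shown. Il12b lies at -0.83 and -0.68, away from the main cloud, Il12a is low on the unstimulated axis, and Il23a, Il27 and Ebi3 lie within the cloud.

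The response to IFN-gamma and LPS was read within each genotype as the ratio of stimulated to unstimulated CPM. Over 10868 genes with 50 reads or more in all 4 libraries the median gene shifted by -0.14 (KO) and -0.15 (WT) on the log2 scale, and responses are given relative to it. Of the 5 members, 4 were 2-fold or more higher after stimulation in each genotype (Il12a, Il12b, Il23a and Il27), against 2.63% of genes in KO and 3.25% in WT cells. No member was 2-fold lower, against 0.699% of genes in each genotype. Il27 had the largest response, 10.4-fold in KO cells (8.31 to 12.9) and 11.9-fold in WT cells (9.45 to 14.9), and 6 genes in KO and 12 in WT cells exceeded it. Il23a followed at 6.70-fold in KO (5.19 to 8.66) and 6.21-fold in WT cells (4.74 to 8.14). Il12a was raised 3.85-fold in KO (3.47 to 4.27) and 2.86-fold in WT cells (2.61 to 3.13), and these intervals did not overlap. Il12b was raised 2.58-fold in KO (2.45 to 2.71) and 2.87-fold in WT cells (2.75 to 2.99), less in KO cells and also without overlap. Ebi3 was 1.42-fold higher in KO (1.35 to 1.49) and 1.49-fold in WT cells (1.41 to 1.56), below 2-fold. In each genotype the response of Il23a exceeded that of its partner Il12b, and that of Il27 exceeded that of its partner Ebi3, without overlap of the intervals. For the IL-12 pair the response of Il12a exceeded that of Il12b in KO cells, and the intervals overlapped in WT cells. These responses compare libraries of the 2 tables through their read totals and were not tested.

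**Figure D5:**
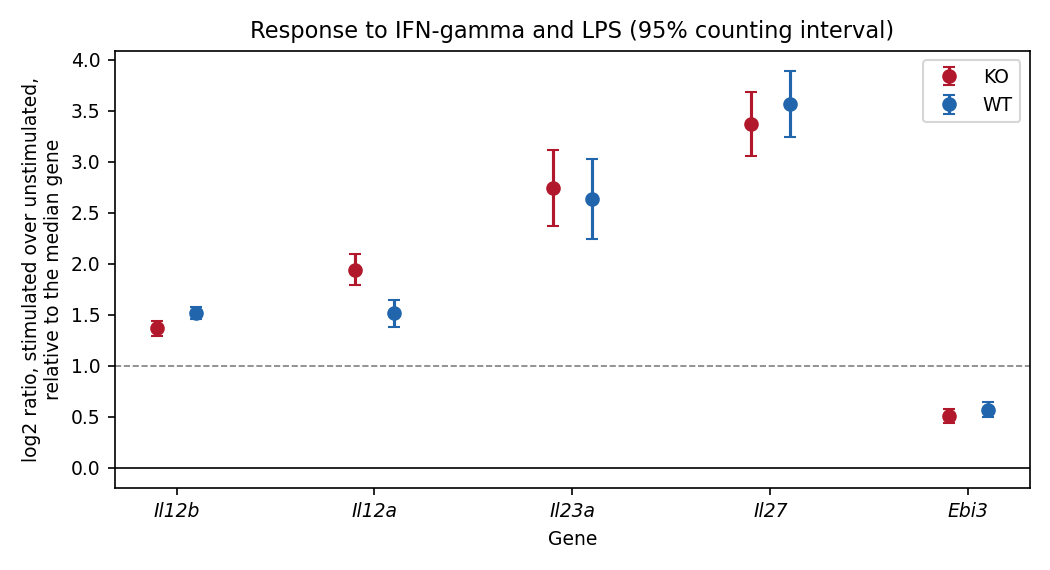
Log2 response to IFN-gamma and LPS relative to the median gene, with 95% counting intervals, for the 5 subunit genes, KO beside WT. Il27 responded most (3.37 in KO and 3.57 in WT) and Ebi3 least of the 5 (0.51 in KO and 0.57 in WT).

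The genes whose 2 ratios were nearest to those of Il12b were sought among 10298 genes of like precision, by Euclidean distance in log2 units over the 2 comparisons. Rdh12, a retinol dehydrogenase, was the only gene within 0.1, with -0.88 after stimulation and -0.69 without it. The next 7 were Spn, Dixdc1, Fzd1, Nqo1, Prickle2, Arhgap24 and Dnajc28, at distances from 0.15 to 0.25. All 8 were counted less precisely than Il12b (SE 0.026 and 0.040). Their SEs ran from 0.050 (Fzd1, stimulated) to 0.25 (Dixdc1, stimulated), so the order among them is uncertain. By contrast 12 genes lay within 0.1 of Il12a (nearest S100a8, Megf9 and Zfp738), 543 of Il27 (Notch2, Il1r2 and Katna1), 2142 of Il23a (Acbd5, Lamp2 and Ccdc90b) and 2601 of Ebi3 (Eif2b5, Elac1 and Tk2). Il12b and Il12a thus have few genes of like ratios, and the other 3 members have many. These counts restate how far the ratios of each member lie from those of most genes.

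The receptors of these cytokines were read in the same cells. None of 5 receptor genes was called in either state, although Il12rb1 lay at the edge of the fold threshold and was called with the ratios as deposited or centred on the median gene. Il12rb1, the chain common to the IL-12 and IL-23 receptors, had 5.49 CPM in KO and 8.22 CPM in WT cells after stimulation, a ratio of -0.58 ± 0.13 that passed the threshold on p but not that on fold, and 4.17 CPM in KO and 3.95 CPM in WT cells without it. Il12rb2 (43.5 CPM in KO and 43.7 CPM in WT after stimulation), Il23r (5.93 CPM in KO and 6.74 CPM in WT) and Il27ra (2.04 CPM in KO and 2.07 CPM in WT) passed neither threshold. Il6st, the signalling chain that IL-27 shares with IL-6, passed p alone in unstimulated cells, at 136 CPM in KO and 123 CPM in WT cells (0.15 ± 0.030). Among 7 downstream genes, Ifng, the main target cytokine of IL-12, was called higher in stimulated KO cells, at 77 reads in the KO and 35 reads in the WT library (1.17 ± 0.29), and had 34 reads in the KO and 22 reads in the WT library without stimulation. Among all genes 0.425% were called higher after stimulation. The Ifng call is lost with genes of 50 reads or more, which leaves Ifng out. Its level, 2.09 CPM in KO and 0.928 CPM in WT cells, was low beside that of the signal transducers. On p alone, which 11.9% of genes passed in either direction after stimulation and 8.96% without it, Stat3 (-0.24 ± 0.017), Stat4 (-0.17 ± 0.035) and Jak2 (-0.14 ± 0.010) were lower in stimulated KO cells. Lymphocytes and natural killer cells are a common source of Ifng. Their markers summed to 16.7 CPM in KO and 11.3 CPM in WT cells after stimulation. Without it the sums were 19.3 CPM in KO and 13.2 CPM in WT cells, with 13 of 14 listed and Ncr1 not listed. In each state 1 was called higher, where 0.425% of all genes were after stimulation and 0.409% without it. The part of these markers in the Ifng call was not tested.

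Of 22 genes that sense microbial products or carry that signal and the IFN-gamma signal, 1 was called, Tlr2, the receptor of bacterial lipoproteins. It was called lower in both states, where 0.594% of all genes were called lower after stimulation and 0.299% without it. It had 97.2 CPM in KO and 152 CPM in WT cells after stimulation (-0.65 ± 0.031), and 50.5 CPM in KO and 100 CPM in WT cells without it (-0.99 ± 0.041). On p alone 9 of the 22 were lower and 1 higher after stimulation, where 6.54% of all genes were lower and 5.36% higher. Without stimulation 6 were lower and 1 higher, where 4.27% of all genes were lower and 4.7% higher. All 22 had 50 reads or more in each library, while 10999 of 15310 genes did after stimulation and 11119 of 15394 without it. Passing p depends on read depth, so the shares of all genes given beside these lists are not matched for it. Apart from Ifng and Tlr2, the genes named from these lists were chosen after their values were seen. Cd14, a co-receptor for LPS, had ratios of -0.27 ± 0.008 after stimulation and -0.51 ± 0.009 without it, and Tlr4, the LPS receptor itself, had 0.22 ± 0.030 and 0.09 ± 0.021. Ifngr1, a chain of the IFN-gamma receptor, had -0.21 ± 0.048 after stimulation.

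None of 23 transcription factor genes was called in either state, and with the ratios as deposited 1 was, Batf3 in unstimulated cells (0.51 ± 0.040 when scaled for depth). On p alone 8 were higher and 6 lower after stimulation, where 5.36% of all genes were higher and 6.54% lower. Without stimulation 6 were higher and 5 lower, where 4.7% were higher and 4.27% lower. The list median was 0.01 after stimulation and -0.03 without it. All 23 had 50 reads or more in each library, so these shares too are not matched for depth. Rel, which encodes the kappa B factor c-Rel, had 80.7 CPM in KO and 102 CPM in WT cells after stimulation (-0.34 ± 0.035). Without it Rel had 93.7 CPM in KO and 97.7 CPM in WT cells (-0.06 ± 0.034). Irf1, which takes part in the induction of Il12a by IFN-gamma, had -0.27 ± 0.017 after stimulation and 0.02 ± 0.032 without it. Il12a itself was called lower only in unstimulated cells. Irf8 (0.24 ± 0.013 and 0.31 ± 0.017) and Irf5 (0.24 ± 0.014 and 0.27 ± 0.013), which also act on IL-12 genes, were higher in KO cells in both states. Of 20 genes that restrain cytokine production none was called, and 1 was with the ratios as deposited in unstimulated cells. On p alone 5 were higher and 3 lower after stimulation, where 5.36% of all genes were higher and 6.54% lower. Without stimulation 4 were higher and 5 lower, where 4.7% of all genes were higher and 4.27% lower. Il10, whose product represses Il12b, had 18.1 CPM in KO and 19.7 CPM in WT cells after stimulation and 1.11 CPM in KO and 1.501 CPM in WT cells without it, past neither threshold.

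Among 18 other cytokine genes none was called in either state. On p alone 6 were lower and 1 higher after stimulation, and 5 of the 17 listed were lower and none higher without it, where 6.54% and 4.27% of all genes were lower. The list medians were -0.20 and -0.27; the unstimulated one is that of Il33, with 18 reads in KO and 19 reads in WT cells, and became -0.14 with genes of 50 reads or more and -0.08 as deposited. Il6 had 623 CPM in KO and 728 CPM in WT cells after stimulation (-0.22 ± 0.013) and 133 CPM in KO and 196 CPM in WT cells without it (-0.56 ± 0.026). Tnf had ratios of -0.07 ± 0.021 and -0.14 ± 0.046 and passed neither threshold. The ratio of Il12b was below that of each of these genes that passed the threshold on p, in each state; the differences were not tested. Stromal markers, all 13 listed, summed to 159 CPM in KO and 88.9 CPM in WT cells after stimulation and to 118 CPM in KO and 83.0 CPM in WT cells without it, with 6 called higher and 1 lower after stimulation and 4 higher without it, against the 0.425% higher, 0.594% lower and 0.409% higher of all genes given above. With genes of 50 reads or more these 7 and 4 calls became 3 and 2. That filter asks for 50 reads in both libraries, so after stimulation it left out collagen genes that were low in WT cells only. Among these Col1a1 had 367 reads in KO and 33 reads in WT cells (3.51 ± 0.26). Col3a1 had 226 reads in KO and 3 reads in WT cells (6.27 ± 0.84). The marker called lower was Pdgfrb (-0.74 ± 0.15). Macrophage markers had 2 called higher after stimulation and 3 without it, against 0.425% and 0.409% of all genes. C1qb and C1qc were among the called markers in both states, at 7.33 CPM or less. On p alone 6 of the 14 were higher and 2 lower after stimulation, where 5.36% of all genes were higher and 6.54% lower. Without stimulation 8 were higher and 2 lower, where 4.7% of all genes were higher and 4.27% lower. The 2 lower ones were Csf1r (-0.15 ± 0.016 after stimulation and -0.27 ± 0.015 without it) and Cd14 in each state. Of 12 neutrophil markers 7 were listed after stimulation and 10 without it. They summed to 351 CPM in KO and 398 CPM in WT cells after stimulation and to 257 CPM in KO and 322 CPM in WT cells without it, with none called. Most of each sum came from Lcn2 and Mmp8. After stimulation Lcn2 had 280 CPM in KO and 330 CPM in WT cells, and Mmp8 had 60.5 CPM in KO and 57.8 CPM in WT cells. Camp, Ltf and Mpo had 21 reads or fewer in each library. The part of any of these markers in the ratios of the subunit genes was not tested.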

How the data were processed

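The authors deposited 2 comparison tables, KO over WT in stimulated and in unstimulated cells. Per the file headers these hold a log2 ratio per gene; from its values, the other column deposited by the authors is −log10 p, with no value above 150 (stimulated) or 100 (unstimulated). HTSeq 0.6.0, FastQC 0.10.1 and mm10 are named in the submitters' processing notes; no source used here gives the aligner, annotation, strand setting or test.

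The deposited p was found to equal a normal test of the log2 ratio given the mean log count, with a zero point at the log2 ratio of the library totals. Solving ratio and p for each gene returned whole reads for 100% of 15260 and 15343 genes below the limit, matching the deposited ratio within 1e-09. For the 50 and 51 genes at the limit, which include Il12b (stimulated) and Golm1 (unstimulated), the smallest whole pair that keeps the table's order by p was used; the next pair for Il12b would bring the table to 107% of the library totals. Libraries without reads stand at 0.5. The deposited log2 ratio is not scaled for depth, so it was reduced by its zero point, -0.04 (stimulated) or 0.19 (unstimulated).

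Groups came from sample titles. No count model was run, as 1 library per group leaves no spread to estimate. Calls use the Benjamini-Hochberg adjusted deposited p under 0.001 and 1.5-fold; 159 of 159 and 161 of 161 genes marked by the authors pass these on the deposited scale. Members, lists, motifs and the rule for named genes (all members, Golm1, list members past both thresholds, nearest genes) were chosen with earlier results of these data known. List genes missing from both tables were also sought under RefSeq synonyms, after seeing the data, which added 1 macrophage marker. Gene positions and exon lengths are from GENCODE M21 (GRCm38), promoters from RefSeq; 3 of 5 members had a promoter entry. Python 3.11.15, numpy 2.4.6, pandas 2.3.3 and scipy 1.17.1 were used. The recovery of reads was also run on simulated data. Their p was made with the same formula, so that run cannot show which test the authors used. A gene of the downstream list is not reported here.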

Additional observations from a re-analysis of the deposited data

How the results depend on the processing

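Taken as deposited, without the reduction for library totals, no member passed both thresholds in unstimulated cells (0 called): Il12b stood at -0.49 and Il12a at -0.42 in the authors' deposited table, both below 1.5-fold with the adjusted p unaltered. On that scale the unstimulated ratios of Il23a (0.18) and Il27 (0.14) changed sign, and the difference between the states moved to -0.38 for Il12b, 0.20 for Il12a and -0.29 for Ebi3. This follows from construction, since the deposited ratio contains the ratio of total reads. At 2-fold no member was called in either state (0 and 0). The calls of members did not change with centring on the median gene, with an adjusted p under 0.05, with no threshold on p, with no fold minimum or with the Bonferroni adjustment. Totals summed over the genes of the table, chosen after seeing the data, left each member's ratio within its counting error. With the exons of all annotated transcripts, a setting also chosen after seeing the data, 12 ratios between chains moved outside their counting intervals. The 4 ratios that stayed the same were those of Ebi3 over Il27. Among the counts and medians of the pathway and marker lists, 17 moved with the ratios as deposited, 1 with centring on the median gene and 7 with only genes of 50 reads or more. Of the 8 genes nearest to Il12b, 5 were also among the nearest 8 by distance in units of counting error. No paired analysis was possible because each group is 1 library and the comparisons share no replicates. Depth limits Il23a and Il27 without stimulation, with 61 to 89 reads per library; intervals cover counting error only. Reads of genes at the limit of the deposited p rest on the order of the table.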

Other observations

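The response to IFN-gamma and LPS of other cytokine genes, relative to the median gene on the log2 scale, differed in size between the genotypes in both directions. Il6 responded by 2.37 ± 0.022 in KO and 2.04 ± 0.020 in WT cells, and Il1b by 1.99 ± 0.009 in KO and 1.64 ± 0.008 in WT cells. Il15, a cytokine that sustains natural killer and memory T cells, responded by 0.97 ± 0.051 in KO and 1.54 ± 0.052 in WT cells. Tnf responded by 2.41 ± 0.036 in KO and 2.34 ± 0.036 in WT cells, and Csf3 by 2.70 ± 0.030 in KO and 2.67 ± 0.032 in WT cells. These are values of 1 library per group with counting errors, without a test of the difference, and the genes were chosen after their values were seen.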
